A study of Arabidopsis thaliana with 32 samples.

Results

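Ferritin transcripts of Arabidopsis thaliana leaves were followed across 4 CO2 levels in 2 kinds of light. The ferritin family has 4 genes, FER1 (AT5G01600), FER2 (AT3G11050), FER3 (AT3G56090) and FER4 (AT2G40300), which were taken by locus identifier from a table of 21525 genes. All samples were leaves of wild-type Col-0 plants, 6 to 7 weeks old and kept under 8 h of light per day (100 µmol photons m-2 s-1), and RNA came from the seventh leaf after 3 h of treatment. GL-treated plants stayed in growth light, and PSI-PI-treated plants received a light program that photoinhibits photosystem I (PSI): red light (660 nm, 35 µmol) for 5 s and then a 1 s saturating pulse (1000 µmol), given 3 times and followed by 30 s at the growth intensity. Each treatment was given in air with 0, 100, 400 or 1000 ppm CO2, where 400 ppm is the atmospheric level, which makes 8 groups of 4 biological replicates (32 leaves).

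Ferritins are protein shells that take up ferrous iron, oxidize it and hold it as a mineral core, which keeps free iron from feeding the formation of reactive oxygen species. In plants they reside mainly in plastids, and in leaves the chloroplast is where most iron is used, with PSI holding iron-sulfur clusters on its acceptor side. Transcripts of FER1, FER3 and FER4 are known to accumulate in leaves given excess iron, whereas FER2 is known as the ferritin of the dry seed. Ferritin genes are repressed when iron is low by basic helix-loop-helix (bHLH) factors around ILR3, which bind motifs such as the G-box.

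The gene models were read from RefSeq (assembly TAIR10.1, whose chromosome lengths are those of TAIR10). FER1 lies on chromosome 5 (227953 to 230051, minus strand), FER2 on chromosome 3 (3463477 to 3465506, plus strand), FER3 on chromosome 3 (20813904 to 20816035, minus strand) and FER4 on chromosome 2 (16831109 to 16833294, minus strand). Each gene has 8 exons in its first annotated transcript, and the coding lengths are 762 to 780 bases. FER1 has the longest leader, with 457 bases between the transcript start and the start codon, against 174 in FER2, 80 in FER4 and 51 in FER3. The coding sequences were 64.8% to 78.4% identical in pairs, with FER3 and FER4 the most alike. The longest exact stretch that any 2 transcripts shared was 32 bases, also between FER3 and FER4, and 16 or 17 bases in the other pairs.

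All 4 genes carried a G-box (CACGTG, which reads the same on both strands) within the 250 bases before the start codon, a feature that 5.09% of 27439 protein-coding genes showed in a window of the same length. The windows are shown because this is the sequence feature that the members share, with the G-box in capitals, 5′ to 3′ along the strand of each gene.
FER1 G-box: atatccaccctcCACGTGgatctcaatcca
FER2 G-box: ttctcctctttcCACGTGtccaacaaacag
FER3 G-box: atcgtatccatcCACGTGtcaacaatccac
FER4 G-box: atctcgtacgtaCACGTGtctctcatccgc
These windows lie at chr5:229720-229749, chr3:3463496-3463525, chr3:20816094-20816123 and chr2:16833346-16833375. The motif began 143 bases before the start codon in FER1 and in FER2, 127 in FER3 and 149 in FER4. In FER1 and FER2 it is inside the transcribed leader, and in FER3 and FER4 it is 76 and 69 bases before the transcript start.

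The iron-dependent regulatory sequence (IDRS), an element through which low iron represses ferritin genes in maize and Arabidopsis, was searched on both strands as CACGAGNCCNCCAC. FER1 was the 1 gene of the 27439 with a match in this window, at 190 bases before the start codon and inside the leader. The element was already known from ferritin genes, so a match in a member is no independent result. It is shown with the match in capitals. FER1 is also the member with the highest level and the widest range, and a link of these to the match was not tested.
FER1 IDRS: ggatgtagCACGAGGCCGCCACacgcccct
This window lies at chr5:229763-229792 on the minus strand. A match to the binding motif of the phosphate regulator PHR1 (GNATATNC, on either strand), which also acts on FER1, was found in FER1 and in no other member, where 4.16% of all genes had 1. None of the matches overlapped another, and a match is a description of these letters and not of binding.

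The deposited values are normalized counts per gene, with totals of 18494378 to 31211055 per leaf, highest at 100 ppm CO2 (25856591 to 31211055). The 6 leaf markers, among them the Rubisco gene RBCS1A and the antenna gene LHCB1.3, were high in every leaf, with a summed level of 341420 to 614040 normalized counts at 0 ppm in GL and up to 2450685 at 100 ppm in PSI-PI. Of the seed markers SESA1 was analysed and lay at 0 in 21 leaves and at no more than 5.55. Of the root markers FRO2 was at 4.41 to 43.9, and PYK10, also a gene of the leaf margin, reached 1303 in 1 leaf of 0 ppm GL. The part of these differences in the ferritin levels was not tested. In whole leaves, fewer cells of a type and less RNA per cell cannot be told apart.

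FER1 was the member with the highest level and the widest range. Over the 32 leaves FER1 lay between 348 and 43738 normalized counts, a range of 126-fold, and ranked 252 of 21525 genes by mean. FER3 ranged from 88.6 to 2764 (31.2-fold) and FER4 from 111 to 1620 (14.6-fold). FER2 lay between 0 and 7.51, ranked 19548, and was listed at 0 in 2 leaves, both of 1000 ppm PSI-PI. The levels of FER2 are at a few reads per leaf, the range in which counting error is largest. In the plot of ferritin transcripts by leaf, the PSI-PI values of FER1, FER3 and FER4 stand above the GL values at every CO2 level, and FER2 has no such separation.

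**Figure D1:**
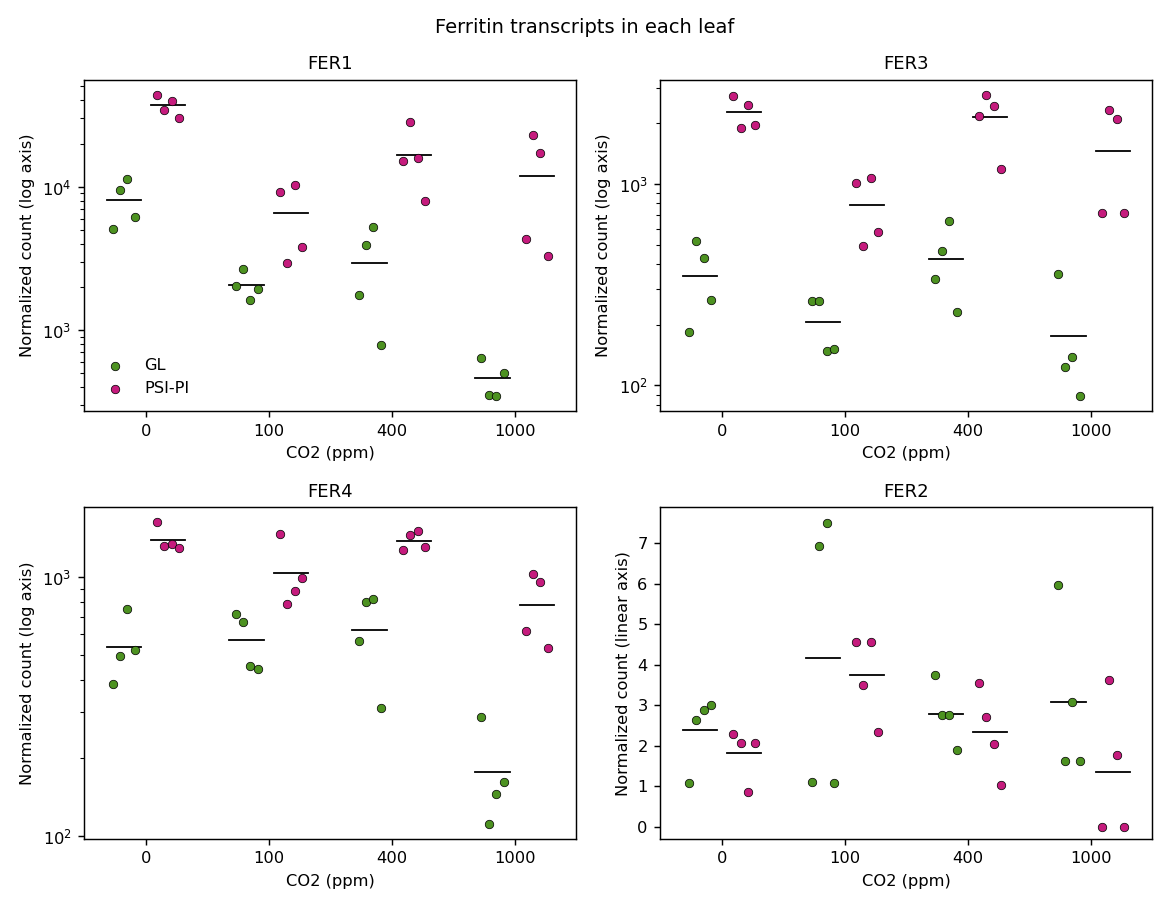
Normalized counts of the 4 ferritin genes in each of the 32 leaves, by CO2 level (ppm) and light treatment (green GL, magenta PSI-PI, 4 leaves per group, black bar the mean), with log axes for FER1, FER3 and FER4 and a linear axis for FER2. FER1 spans 348 to 43738 and FER2 stays at or below 7.51.

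PSI-PI treatment was compared with GL at each CO2 level to ask how ferritin transcripts respond to this light program. In this design the red light, the saturating pulses and the PSI photoinhibition cannot be told apart, and their parts were not tested. A gene was called at an adjusted p under 0.05 and a change of 1 or more on the log2 scale in limma, fitted on log2 of the normalized count plus 1 over the 21469 genes with at least 10 normalized counts in total. All 4 members passed this filter. FER1, FER3 and FER4 rose at 0, 400 and 1000 ppm, and at 100 ppm FER3 rose, so that 3, 1, 3 and 3 of the 4 members were called at 0, 100, 400 and 1000 ppm. Over all tested genes, 1.02%, 1.27%, 3.28% and 1.86% rose in these contrasts. Averaged over the CO2 levels, the same 3 genes rose, where 1.37% of all genes did.

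FER1, which encodes the main ferritin of leaves, had its highest fold change at 1000 ppm. At 0 ppm CO2, FER1 was at 5115, 9480.4, 11323 and 6182 normalized counts in GL-treated leaves and at 43738, 34358, 39880.4 and 30291 in PSI-PI-treated leaves. The lowest PSI-PI leaf was thus above the highest GL leaf, and the log2 fold change was 2.27 ± 0.54 (SE, n = 4 leaves per group, limma adjusted p = 0.0109). At 100 ppm, FER1 was at 2020.2, 2680.2, 1627 and 1927 in GL and at 9215, 2923, 10230.0 and 3823 in PSI-PI. The groups did not overlap here either, but PSI-PI replicates 2 and 4 lay close to the GL leaves, and the log2 fold change of 1.49 ± 0.54 missed the threshold (limma adjusted p = 0.0835). Without PSI-PI replicate 2, FER1 passed (1.81, adjusted p = 0.0494), and in the fit of only these 8 leaves it did as well (adjusted p = 0.0472). At 400 ppm, FER1 was at 1771, 3947, 5215 and 783 in GL and at 15171, 28077, 15763 and 7918 in PSI-PI, a log2 fold change of 2.72 ± 0.54 (limma adjusted p = 4.73e-04). Within GL the leaves differed 6.66-fold, with replicate 4 the lowest, and all 4 were below the PSI-PI leaves.

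At 1000 ppm, FER1 was at 645, 352, 348 and 503 normalized counts in GL-treated leaves and at 4296, 22914, 17055 and 3317 in PSI-PI-treated leaves. The group means were 462 ± 142 and 11896 ± 9650.0 (SD, n = 4), a 25.8-fold ratio of means. Its log2 fold change of 4.27 ± 0.54 (limma adjusted p = 5.89e-06) was the highest of the 21469 genes in this contrast. The PSI-PI leaves fell into a high pair (replicates 2 and 3) and a low pair (replicates 1 and 4), and the low pair was still above every GL leaf. Averaged over the CO2 levels, the log2 fold change of FER1 was 2.69 ± 0.27, rank 5 of all genes (limma adjusted p = 9.12e-09).

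FER3 rose at every CO2 level. At 0 ppm, FER3 was at 184, 518, 429 and 266 normalized counts in GL and at 2712, 1900.1, 2465 and 1968 in PSI-PI. The log2 fold change was 2.79 ± 0.43 (SE, n = 4 per group, limma adjusted p = 1.69e-04), with no overlap between the groups. At 100 ppm, FER3 was at 261, 263, 148 and 152 in GL and at 1010.0, 493, 1068 and 574 in PSI-PI, and the log2 fold change was 1.90 ± 0.43 (limma adjusted p = 0.00482). FER3 was thereby the member called at 100 ppm, where its lowest PSI-PI leaf was at 493 and its highest GL leaf at 263. At 400 ppm, FER3 was at 338, 466, 650.4 and 231 in GL and at 2169, 2764, 2437 and 1184 in PSI-PI, a log2 fold change of 2.38 ± 0.43 (limma adjusted p = 1.49e-04). At 1000 ppm, FER3 was at 355, 123, 138 and 88.6 in GL and at 713, 2323, 2093 and 714 in PSI-PI, a log2 fold change of 3.04 ± 0.43 and rank 12 of all genes (limma adjusted p = 2.09e-05). The PSI-PI leaves of 1000 ppm split as those of FER1 did, with replicates 2 and 3 high.

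FER4 rose by less than FER1 and FER3. At 0 ppm, FER4 was at 384, 495, 748 and 520.0 normalized counts in GL and at 1620, 1309, 1336 and 1294 in PSI-PI. The 4 PSI-PI leaves were close to each other (SD 154 at a mean of 1390), and the log2 fold change was 1.41 ± 0.28 (SE, n = 4 per group, limma adjusted p = 0.00287, and 0.0507 in a fit of only these leaves). At 100 ppm, FER4 was at 715, 667, 453 and 440 in GL and at 1463, 786, 879 and 992 in PSI-PI. This was an increase in level without a call, since the log2 fold change of 0.85 ± 0.28 was under 1 and its adjusted p from limma was 0.0549. At 400 ppm, FER4 was at 566, 797, 818 and 311 in GL and at 1272, 1445, 1497 and 1300.1 in PSI-PI, a log2 fold change of 1.24 ± 0.28 (limma adjusted p = 0.0017) that was 0.94, under the limit of 1, without GL replicate 4. At 1000 ppm, FER4 was at 287, 111, 145 and 162 in GL and at 615, 1026, 953 and 530 in PSI-PI, a log2 fold change of 2.18 ± 0.28 (limma adjusted p = 7.38e-06). No GL leaf reached the level of any PSI-PI leaf at the same CO2 level.

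The 4 PSI-PI leaves were therefore above all 4 GL leaves at each of the 4 CO2 levels for FER1, FER3 and FER4, in all 12 comparisons. Of all tested genes, 4.86%, 12.0%, 17.8% and 9.11% had PSI-PI leaves that were all above the GL leaves at 0, 100, 400 and 1000 ppm. FER2, in contrast, was called in none of the light contrasts. Its log2 fold changes were -0.26, 0.17, -0.23 and -0.98 at 0, 100, 400 and 1000 ppm (adjusted p of 0.804, 0.88, 0.784 and 0.214 from limma), each with a SE of 0.48, and the interval at 1000 ppm ran from -1.97 to 0.00. In GL, FER2 was at 1.07 to 3.00 normalized counts at 0 ppm, 1.08 to 7.51 at 100 ppm, 1.90 to 3.75 at 400 ppm and 1.61 to 5.98 at 1000 ppm. In PSI-PI it was at 0.86 to 2.30, 2.35 to 4.57, 1.03 to 3.54 and 0 to 3.62, and the groups overlapped at every CO2 level.

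**Figure D2:**
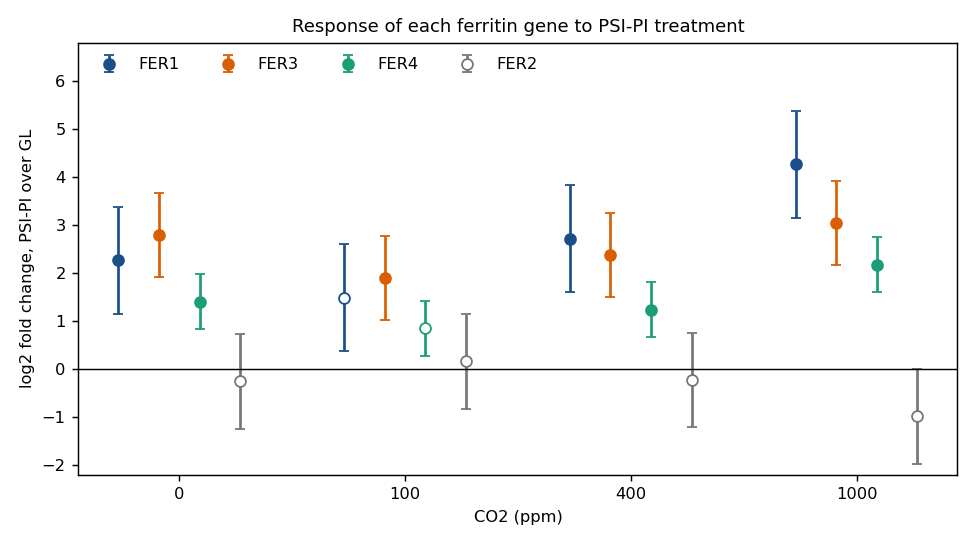
Log2 fold change of PSI-PI over GL (vertical axis) for each ferritin gene at 0, 100, 400 and 1000 ppm CO2, with 95% confidence intervals from limma and 4 leaves per group. Filled points were called (adjusted p under 0.05 and a change of 1 or more on the log2 scale), and FER1 at 1000 ppm is the highest at 4.27.

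Whether the members differed in their response to PSI-PI was tested on the log2 ratio of each pair within a leaf (of normalized counts plus 1), in which a scaling factor common to the leaf all but cancels. The log2 ratio of FER1 to FER4 was 1.27 higher in PSI-PI than in GL (2.41-fold), and that of FER3 to FER4 was 1.11 higher (2.15-fold). Both had p = 1e-05 in a permutation test within CO2 levels (two-sided, 100000 resamples, 16 leaves per light treatment), the smallest p it can give, and the same value after adjustment over the 3 pairs. FER1 and FER3 did not differ in this test, with a difference of 0.16 (1.12-fold, permutation p = 0.422). This average over the CO2 levels combined ratios that moved in opposite directions. The mean log2 ratio of FER1 to FER3 went from 4.56 in GL to 4.04 in PSI-PI at 0 ppm, where the leaves did not overlap (4.19 to 4.79 against 3.94 to 4.18), and from 3.35 to 2.94 at 100 ppm. It went from 2.56 to 2.90 at 400 ppm and from 1.55 to 2.78 at 1000 ppm, and these differences at single CO2 levels were not tested. FER4 thus had a smaller response than both others when averaged over the CO2 levels.

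Levels can be compared between genes only per length, so the normalized counts were divided by the transcript length (1421 bases for FER1, 1148 for FER2, 1277 for FER3 and 1252 for FER4). FER1 provided most of the ferritin transcripts per kb in the mean of every group, from 55.0% ± 7.26 (SD, n = 4) at 1000 ppm GL to 90.0% ± 0.58 at 0 ppm PSI-PI. FER2 provided no more than 0.57% in any leaf. The means of FER3 and FER4 exchanged their order with the light treatment at 0, 400 and 1000 ppm. At 0 ppm, FER3 held 4.24% ± 0.83 and FER4 6.98% ± 1.31 in GL, whereas FER3 held 6.11% ± 0.38 and FER4 3.86% ± 0.37 in PSI-PI. At 400 ppm, FER4 went from 19.7% ± 5.44 in GL to 8.70% ± 3.69 in PSI-PI, while FER3 was at 13.0% ± 3.96 and 12.0% ± 1.78. At 1000 ppm the means in GL were closer than the spread of the leaves, with 21.6% ± 6.74 for FER3 and 23.0% ± 1.75 for FER4. In PSI-PI at 1000 ppm, FER3 held 12.9% ± 3.11 and FER4 8.62% ± 4.4. At 100 ppm FER4 stayed above FER3 in both, with 21.9% and 15.6% against 7.68% and 10.7%.

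**Figure D3:**
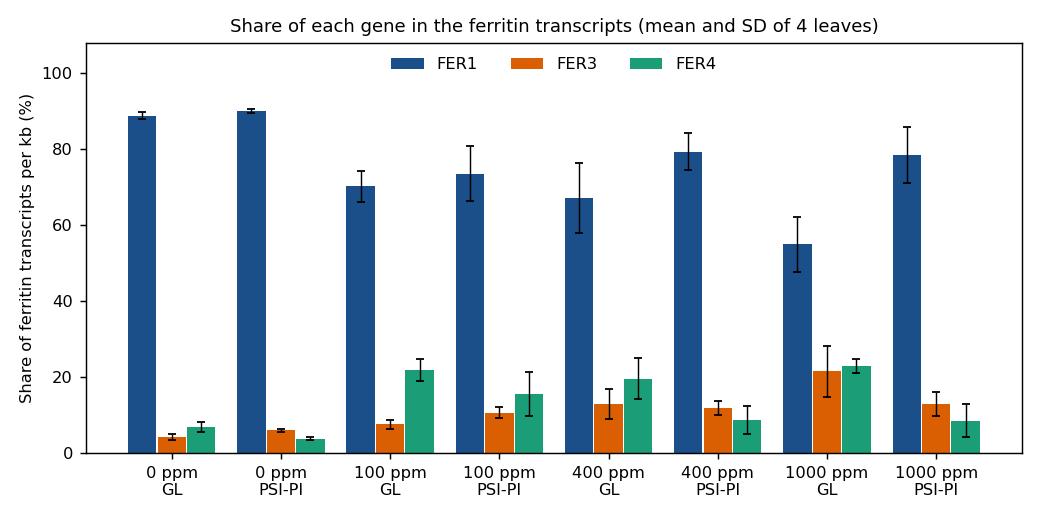
Share (%) of FER1, FER3 and FER4 in the summed ferritin level per kb of transcript in each group, as the mean of 4 leaves with the SD as error bar. FER1 holds between 55.0% and 90.0%, and FER3 exceeds FER4 in PSI-PI at 0, 400 and 1000 ppm.

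The sum of the 4 genes per kb put the groups in the same order as FER1. The mean of the sum was 28967 ± 4568 normalized counts per kb at 0 ppm PSI-PI and 606 ± 245 at 1000 ppm GL (SD, n = 4). FER1 itself was highest at 0 ppm PSI-PI (37067 ± 5935 normalized counts), followed by 400 ppm PSI-PI (16733 ± 8362), 1000 ppm PSI-PI (11896), 0 ppm GL (8025 ± 2879), 100 ppm PSI-PI (6548 ± 3707), 400 ppm GL (2929 ± 2017), 100 ppm GL (2064 ± 444) and 1000 ppm GL (462). The first group did not overlap with the next, nor did the last with the one before it, and all other neighbours overlapped. FER1 at 0 ppm without PSI-PI treatment thus overlapped with 3 of the 4 PSI-PI groups, those with 100 or more ppm CO2. Of all tested genes, 8.22% had leaves of 0 ppm PSI-PI that were all above those of 400 ppm PSI-PI. Leaves of 1000 ppm GL were all below those of 100 ppm GL for 18.27%. For FER3 all 4 PSI-PI groups (786 to 2261) had higher means than all 4 GL groups (176 to 421), and each group overlapped with its neighbour in the order. For FER4 the PSI-PI means (781 to 1390) were also above the GL means (176 to 623), and 1000 ppm GL was the group that did not overlap with the next.

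The CO2 levels were compared with 400 ppm within each light treatment to ask how ferritin transcripts respond to the supply of CO2. The leaf markers also moved with CO2, with median sums of 509273, 1758919.8, 1193891 and 615229 normalized counts at 0, 100, 400 and 1000 ppm in GL, and their part in these results was not tested. Of the 3 genes with a high level, FER1 was the one that rose at 0 ppm in GL, where 4.49% of all genes rose. Its log2 fold change was 1.72 ± 0.54 (limma adjusted p = 0.0156), with 3 of the 4 leaves of 0 ppm above all leaves of 400 ppm. Without replicate 4 of 400 ppm GL, the lowest of that group, the log2 fold change was 1.20 and the call was lost (adjusted p = 0.0971), and it was also lost without replicate 3 of 0 ppm GL (1.53, adjusted p = 0.0514). FER3 and FER4 were at -0.28 ± 0.43 and -0.16 ± 0.28 in this contrast. At 0 ppm in PSI-PI, no member was called (2.31% of all genes rose), and FER1 was at 1.27 ± 0.54 (limma adjusted p = 0.093). Its 4 leaves of 0 ppm were above all 4 of 400 ppm, as was the case for 8.22% of all tested genes.

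At 100 ppm in GL, no member was called (3.89% of all genes fell). FER3 was at a log2 fold change of -0.98 ± 0.43 (limma adjusted p = 0.0761) and passed without replicate 4 of 400 ppm GL (-1.23, adjusted p = 0.041), FER1 was at -0.19 ± 0.54 and FER4 at -0.07 ± 0.28. At 100 ppm in PSI-PI, FER3 fell (1.98% of all genes fell), with a log2 fold change of -1.46 ± 0.43 (limma adjusted p = 0.0147) and no overlap between 493 to 1068 normalized counts at 100 ppm and 1184 to 2764 at 400 ppm. Of all tested genes, 13.75% had leaves of 100 ppm that were all below those of 400 ppm in this contrast. The call of FER3 was lost without replicate 2 of 100 ppm PSI-PI (adjusted p = 0.0585) and without replicate 2 of 400 ppm PSI-PI (adjusted p = 0.0513). FER1 had nearly the same log2 fold change of -1.41 ± 0.54 without passing the threshold (limma adjusted p = 0.0603), and FER4 was at -0.46 ± 0.28. Scaled to equal totals, which moved the median of all genes by -0.275 in this contrast, FER1 was at -1.71 and passed (adjusted p = 0.0189).

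At 1000 ppm in GL, FER1 and FER4 fell, where 0.126% of all genes did. FER1 had a log2 fold change of -2.37 ± 0.54 (limma adjusted p = 0.045), and its leaves at 348 to 645 normalized counts lay below the 783 to 5215 of 400 ppm. FER4 had a log2 fold change of -1.81 ± 0.28 (limma adjusted p = 0.00135), with 111 to 287 against 311 to 818, which did not pass in a fit of only these 8 leaves (adjusted p = 0.144). Neither gene overlapped between these groups, and 3.96% of all tested genes lay wholly below in the same way. The call of FER1 was close to the threshold. It was lost when replicate 1, 2 or 3 of 400 ppm GL or replicate 2, 3 or 4 of 1000 ppm GL was left out, where its log2 fold change was -1.98 to -2.50 (adjusted p of 0.0676 to 0.215). It was also lost in a fit of only these 8 leaves (0.174) and without the variance trend (0.065). FER3 was at -1.36 ± 0.43 (limma adjusted p = 0.194), and the groups overlapped through replicate 1 of 1000 ppm at 355, without which FER3 passed (-1.77, adjusted p = 0.0262). At 1000 ppm in PSI-PI, no member was called (0.144% of all genes fell), and the log2 fold changes of FER1, FER3 and FER4 were -0.81 ± 0.54, -0.70 ± 0.43 and -0.87 ± 0.28. FER4 did not overlap there, with 530 to 1026 normalized counts at 1000 ppm against 1272 to 1497 at 400 ppm, where 6.28% of all tested genes lay wholly below.

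The high and low CO2 levels were also compared directly. In GL, FER1 and FER4 fell from 100 to 1000 ppm, with log2 fold changes of -2.18 ± 0.54 and -1.74 ± 0.28 (adjusted p of 0.00213 and 1.96e-05 from limma), where 5.93% of all genes fell. Both genes were lower in all 4 leaves of 1000 ppm than in any leaf of 100 ppm, as were 18.27% of all tested genes. FER3 was at -0.38 ± 0.43, and at 0.064 when scaled to equal totals, which moved the median of all genes by 0.408. In PSI-PI, FER1, FER3 and FER4 were at 0.60 ± 0.54, 0.75 ± 0.43 and -0.41 ± 0.28, with none called, and FER3 passed when scaled to equal totals (1.18, adjusted p = 0.0258). FER2 was called as falling here (-1.30 ± 0.48, limma adjusted p = 0.0388, 4.31% of all genes fell), between 2.35 to 4.57 and 0 to 3.62 normalized counts, levels at which a pseudocount of 5 or a fit of only the 8 leaves removed the call. Leaving out replicates 1, 2 or 3 of 100 ppm PSI-PI or replicates 1 or 4 of 1000 ppm PSI-PI also removed it, so that 0 members were called.

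**Figure D4:**
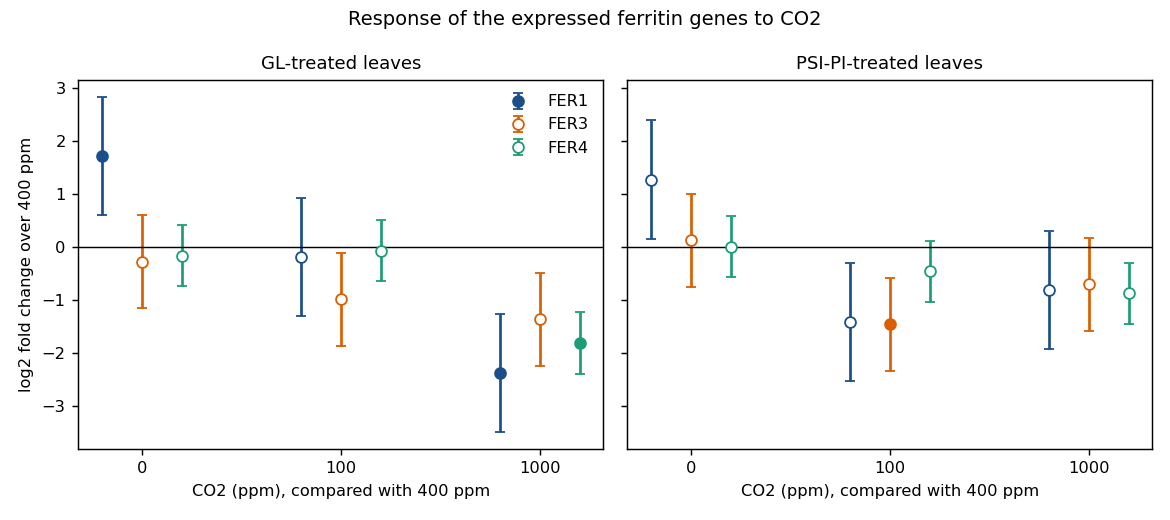
Log2 fold change over 400 ppm CO2 (vertical axis) of FER1, FER3 and FER4 at 0, 100 and 1000 ppm, in GL-treated leaves (left) and PSI-PI-treated leaves (right), with 95% confidence intervals from limma and 4 leaves per group. Filled points were called, which are FER1 at 0 ppm (1.72), FER1 and FER4 at 1000 ppm (-2.37 and -1.81) in GL and FER3 at 100 ppm (-1.46) in PSI-PI.

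The ratios between members also varied with CO2. The log2 ratio of FER1 to FER4 was 3.57 to 4.26 in the leaves of 0 ppm GL and 1.33 to 2.67 in those of 400 ppm GL, and 4.55 to 4.90 against 2.61 to 4.28 in PSI-PI. The log2 ratio of FER1 to FER3 was 4.19 to 4.79 against 1.75 to 3.08 in GL and 3.94 to 4.18 against 2.69 to 3.34 in PSI-PI. FER1 was in each case higher relative to the other member at 0 ppm, with no overlap. These tests were chosen after the values were seen, and among 18 of them the exact permutation p was 0.0286 for each of these ratios at 0 ppm, the smallest that 4 against 4 leaves can give, and 0.103 after adjustment. The log2 ratio of FER3 to FER4 at 0 ppm differed from that at 400 ppm by -0.12 in GL and 0.12 in PSI-PI, less than the spread of the leaves. At 100 ppm this ratio differed from that at 400 ppm by -0.91 in GL without overlap (-1.61 to -1.34 against -0.77 to -0.33, exact permutation p = 0.0286 and 0.103 after adjustment) and by -0.997 in PSI-PI with overlap (exact permutation p = 0.0571 and 0.171 after adjustment).

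Interaction terms, called at an adjusted p under 0.05, compared the effect of PSI-PI on each member at 1 CO2 level with that at another. No member was called in any of the 4 interactions, for which 3.00% (0 against 400 ppm), 0.0466% (100 against 400 ppm), 0% (1000 against 400 ppm) and 0% (1000 against 100 ppm) of all genes were called in limma. The unadjusted p was under 0.05 for 1645 genes in the interaction of 1000 against 400 ppm and for 863 in that of 1000 against 100 ppm. FER1 had a difference of 2.78 ± 0.77 on the log2 scale between its responses at 1000 and 100 ppm (limma, unadjusted p = 0.00116, adjusted p = 0.782) and of 1.56 ± 0.77 between 1000 and 400 ppm (adjusted p = 0.662). FER4 had differences of 1.33 ± 0.40 and 0.94 ± 0.40 (adjusted p of 0.806 and 0.585 from limma), and FER3 of 1.13 ± 0.60 and 0.66 ± 0.60. All 3 genes thus had their highest fold change by PSI-PI at 1000 ppm, without a difference between CO2 levels that passed the correction.

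Within the groups, FER1, FER3 and FER4 varied together from leaf to leaf. The deviations of the leaves from their group means correlated with r = 0.859 between FER1 and FER3, 0.774 between FER1 and FER4 and 0.791 between FER3 and FER4 (32 leaves, given as a description, since genes of the same leaf share its library). They had the same sign in 29, 27 and 28 of the 32 leaves. The leaves of 1000 ppm PSI-PI were the widest group of FER1 (6.91-fold) and showed the same high and low pairs in all 3 genes. In 400 ppm GL replicates 2 and 3 were the highest and replicate 4 the lowest for all 3 genes. FER2 had weaker correlations of 0.473 to 0.607 with the others at its low level.

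**Figure D5:**
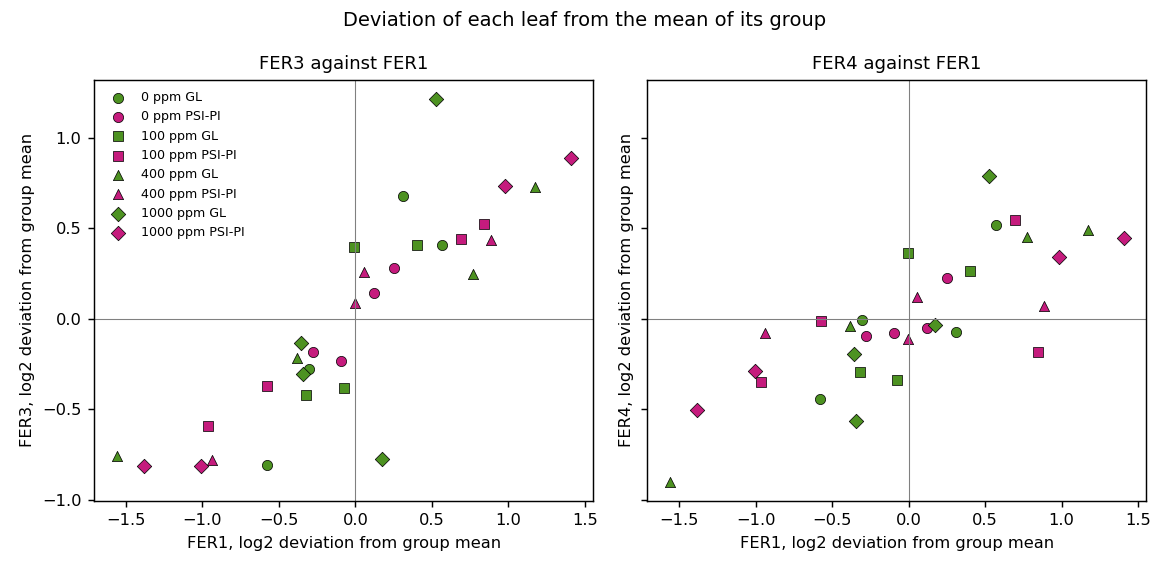
Deviation of the log2 value of FER3 (left) and FER4 (right) from the mean of its group against that of FER1, for the 32 leaves, with the CO2 level as the symbol and the light treatment as the color. Most leaves lie to the lower left and upper right of the origin, with r of 0.859 and 0.774.

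Among 18090 genes whose mean reached 10 normalized counts, FER1, FER3 and FER4 ranked among the genes most like each other. By within-group deviations FER3 was the nearest gene to FER1 and FER1 the nearest to FER3, and FER3 was also the nearest to FER4. The gene next to FER3 in likeness to FER1 by this measure was NAS3, a nicotianamine synthase (r = 0.835), named after its value was seen. By levels over the 32 leaves, the nearest genes to FER1 were TPD1 (AT4G24972, r = 0.907), known from anther development, FER3 (0.888) and FER4 (0.888). The nearest to FER3 were FER1 (0.888), the chloroplast biogenesis factor CIA2 (0.874) and PTAC6, a component of the plastid transcription machinery (0.873). The nearest to FER4 were AT3G49160 (0.942), TPD1 (0.916) and ABCI8, a subunit of the plastid iron-sulfur cluster assembly complex (0.891). The nearest gene to FER2 was LBD26 with r = 0.563, a weak correlation at a few counts. The levels of FER2 had r of -0.067, -0.076 and 0.031 with those of FER1, FER3 and FER4. The most opposite genes, named after their values were seen, were the iron transporter gene OPT3 for FER1 (-0.902), AT3G56360 for FER3 (-0.955) and AT5G05250 for FER4 (-0.889), and these 3 are genes of the iron deficiency list. That list was written with results of these leaves known. The study itself reports AT3G56360 and AT5G05250 as repressed by PSI-PI in them, so their place in the list is no independent result.

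Other genes of iron handling are given beside the ferritins as lists, for which the counts and medians are a description. Of 11 regulators of ferritin genes, none was called as rising with PSI-PI at any CO2 level. Over all genes, 1.02%, 1.27%, 3.28% and 1.86% rose at 0, 100, 400 and 1000 ppm, so this count does not set the regulators apart. Some of the regulators were higher by less than the limit of 1 on the log2 scale. The gene bHLH121 was at 0.75 at 400 ppm and 0.34 at 1000 ppm (limma adjusted p = 8.16e-06 and 0.0364). For bHLH104 the value was 0.41 at 400 ppm (limma adjusted p = 0.0062), and for bHLH34 0.90 and 0.76 at 0 and 100 ppm (limma adjusted p = 0.0199 and 0.0408). PYE, a bHLH factor that represses genes under low iron, fell at 100 and 1000 ppm (log2 fold changes of -1.14 and -2.09), and BTS, an E3 ligase that binds iron, fell at 1000 ppm (-1.16). These made 0, 1, 0 and 2 of 11 at 0, 100, 400 and 1000 ppm, where 0.326%, 0.796%, 2.91% and 0.759% of all genes fell. ILR3 itself was at mean levels of 1884 to 2494 normalized counts in all groups and was not called. The median log2 fold change of the list was between -0.09 and 0.18, against -0.01 to 0.00 for all genes.

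Of 16 genes of iron transport within the cell, 14 were tested, and 1, 3, 4 and 5 of them rose with PSI-PI at 0, 100, 400 and 1000 ppm, with none that fell, where 1.02%, 1.27%, 3.28% and 1.86% of all genes rose. FRO7, the ferric reductase of the chloroplast envelope, rose at 100, 400 and 1000 ppm (log2 fold changes of 1.18, 1.84 and 1.96) but was not called at 0 ppm (0.58). NEET, an iron-sulfur protein of chloroplasts and mitochondria, rose at 0, 400 and 1000 ppm (1.90, 1.42 and 2.31) and was at 1.15 without a call at 100 ppm. VTL1 and VTL2, members of the family of vacuolar iron transporters, rose at 100 and 1000 ppm. The median log2 fold changes of the list were 0.17, 0.41, 0.35 and 0.38, against -0.01 to 0.00 for all genes. This list was written with results of these leaves known. Of its genes that rose, all but FPN3 are among those the study reports as induced by PSI-PI in the same leaves. The counts and medians are therefore no independent support for a rise of such genes.

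Of 19 genes known to rise in iron deficiency, 18 were tested, and 3, 3, 5 and 12 of them fell with PSI-PI at 0, 100, 400 and 1000 ppm, where 0.326%, 0.796%, 2.91% and 0.759% of all genes fell. The median log2 fold changes were -0.67, -0.54, -0.98 and -2.98, against the same -0.01 to 0.00 for all genes. This list, too, was written with results of these leaves known. Below the highest CO2 level, all genes of the list that fell are ones the study reports as repressed by PSI-PI in the same leaves. At the highest level further genes of the list fell. The counts and medians are therefore no independent support for a fall of such genes. FEP1, a peptide that signals iron deficiency, and AT5G05250 fell at all 4 CO2 levels, with log2 fold changes of -3.20 to -4.85 and -4.80 to -6.25. At 1000 ppm, where FER1 had its highest fold change, the bHLH factors BHLH38, BHLH39, BHLH100 and BHLH101 fell (-2.85 to -3.65), and so did OPT3, which loads iron into the phloem (-1.56). These bHLH genes had low counts. In GL they lay at 0.81 to 54.2, 0 to 41.3, 0 to 44.4 and 6.12 to 80.7 normalized counts, in the order named. In PSI-PI they lay at 0 to 0.91, 0, 0 and 0.94 to 5.37. BHLH38, BHLH39 and BHLH100 overlapped between the groups. In the comparison of 1000 with 400 ppm in GL, in which FER1 and FER4 fell, FEP2 and FEP3 rose (3.25 and 3.21), 2 of 18 genes where 0.107% of all genes rose. FEP2 lay at 0 to 8.72 normalized counts at 400 ppm and at 7.25 to 48.9 at 1000 ppm, with overlap. FEP3 lay at 0 to 3.88 and at 7.22 to 33.5. Both thus rose from levels of a few counts, where counting error is large. The iron deficiency list had a median of 1.57 in that comparison, against 0.00 for all genes. Of the same list, CGLD27 and MYB72 rose with PSI-PI at 400 ppm, where 3.28% of all genes rose. CGLD27 was also higher by less than the limit of 1 at 0, 100 and 1000 ppm (0.66, 0.84 and 0.46, limma adjusted p = 0.00652, 6.45e-04 and 0.0414). Other genes were lower by less than this limit, such as FIT at 100 and 1000 ppm (-0.84 and -0.95, limma adjusted p = 0.0172 and 0.00614). MYB72 had low counts at 400 ppm, with 1.84 to 9.39 in GL and 12.2 to 15.4 in PSI-PI.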

How the data were processed

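Reads were assigned to TAIR10 transcripts by the authors with Salmon (0.12), brought to gene level with tximport and normalized with DESeq2. The deposited signal values are normalized counts: 95.0% are not whole, and the median ratio of a leaf to the geometric mean of all was 1.0093 in every leaf. The whole reads were not recovered. A second deposited table holds the authors' own comparisons (log2 fold changes and p-values) and was not used. No further normalization was applied.

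Log2 of the normalized count plus 1 was fitted with limma 3.58.1 (R 4.3.3, mean-variance trend, 1 model of the 8 group means), for 21469 of 21525 genes with at least 10 in total, two-sided, with Benjamini-Hochberg adjustment over all genes of a contrast. The added 1 understates changes of low genes, such as FER2. The steps were tested on simulated data. Python 3.11.15, pandas 2.3.3, numpy 2.4.6 and scipy 1.17.1 were used for ratios, ranges and motifs. Named genes were the members, the genes of the lists and the 3 genes most like each member. Members and lists were chosen with earlier results of these data known. Salmon divides reads between similar transcripts. The methods of the study call the replicates biological without naming their plants, so p-values measure the spread between these leaves. The replicate block, filters, pseudocounts of 0.5 and 5, quantile normalization, no trend, a fit of the contrast's leaves alone, other call rules and single leaves left out were tried, and scaling to equal totals was added after the totals were seen.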

Additional observations from a re-analysis of the deposited data

Results flagged for a closer look

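Among the 32 groups of 4 leaves tested (4 genes in 8 groups), 3 held a leaf whose gap to the nearest other leaf exceeded the 95% limit of Dixon's test, where chance gives about 1 in 20. FER4 in replicate 1 of 0 ppm PSI-PI was at 1620 normalized counts, above the 1294 to 1336 of the other leaves of its group, and the same leaf was the highest of its group for FER1 (43738) and FER3 (2712). FER2 was at 1.07 in replicate 1 of 0 ppm GL and at 0.86 in replicate 3 of 0 ppm PSI-PI, each the lowest of its group at a level of a few counts.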

How the results depend on the processing

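FER1, FER3 and FER4 kept the direction of the PSI-PI effect at every CO2 level under every alternative run. In that comparison 2 members in place of 1 were called at 100 ppm in the fit of the contrast's leaves alone, with the unadjusted p, and without PSI-PI replicate 2 of 100 ppm (1 to 2 over the leaves left out). More counts moved in the CO2 comparisons, where leaves of a group differed by up to 6.91-fold for FER1. At 1000 against 400 ppm in GL, 1 member was called without the variance trend and 0 with the contrast's leaves alone, where 2 were called as reported. At 100 against 400 ppm, equal totals gave 1 call in GL in place of 0, and quantile normalization, equal totals and the unadjusted p gave 2 in PSI-PI in place of 1. The unadjusted p gave 1 at 0 against 400 ppm in PSI-PI, 1 in the interaction of 1000 against 400 ppm and 2 in that of 1000 against 100 ppm. FER2 was called at 1000 against 100 ppm in PSI-PI, and 0 members were called there with the stricter filter, a pseudocount of 5, quantile normalization and the contrast's leaves alone.

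With single leaves left out, the members called ranged from 0 to 1 at 0 against 400 ppm in GL, 0 to 1 at 100 against 400 ppm in GL, 1 to 3 at 1000 against 400 ppm in GL, 0 to 2 at 100 against 400 ppm in PSI-PI and 0 to 1 at 1000 against 100 ppm in PSI-PI. The 2 calls at 100 against 400 ppm in PSI-PI came without replicates 1 or 3 of 100 ppm or replicate 4 of 400 ppm. Log2 fold changes that were not called turned sign. FER4 ranged from -0.46 to 0.00426 at 0 against 400 ppm in GL and from -0.37 to 0.10 at 100 against 400 ppm in GL, where FER1 ranged from -0.71 to 0.20. In PSI-PI at 0 against 400 ppm, FER3 ranged from -0.13 to 0.28 and FER4 from -0.067 to 0.049, and FER1 in the interaction of 0 against 400 ppm from -0.84 to 0.071. Equal totals, which moved the median of all genes by -0.118 to -0.155 in the light contrasts and by up to 0.408 in the CO2 contrasts, turned FER3 at 1000 against 100 ppm in GL to 0.064 and FER4 in PSI-PI to 0.016. The cause of these changes was not tested.

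Replicate numbers were not used to pair the leaves. The mean correlation of same-numbered leaves was -0.13 to 0.11 over the contrasts, with single pairs from -0.51 to 0.28. Whether same numbers mark paired leaves cannot be decided from so few pairs. A replicate block gave 2 calls in place of 1 at 100 ppm for PSI-PI against GL and 2 in place of 1 at 100 against 400 ppm in PSI-PI. FER2, at 0 to 7.51 normalized counts, is limited by depth.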
